A study of Rattus norvegicus with 6 samples.

Results

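Cadherins and protocadherins were followed in rat H9c2 cells with and without Nono. Members were taken by gene symbol, as Cdh followed by a number or as any symbol that starts with Pcdh, and 54 of the 16319 genes in the count table matched. They comprised 16 numbered cadherins, 4 protocadherins that stand as single genes and 34 clustered protocadherins. H9c2 is a line derived from embryonic rat heart and grows as myoblasts. The WT group was wild type H9c2 cells and the Nono-KO group was an H9c2 line with a homozygous Nono knockout, made with Cas9 and 1 guide RNA and selected with Puromycin. The protocol names pEGFP-N1 as control plasmid for the transfection, and both groups were kept in the same DMEM with fetal bovine serum. RNA-seq of poly(A) RNA was run on 3 libraries of each group, WT replicates 1 to 3 and Nono-KO replicates 1 to 3. The methods of the study call the libraries of a group biological replicates and do not say whether they came from separate cultures. Only 1 knockout line was sequenced, so p-values here measure the spread between libraries, and what is particular to that line cannot be told apart from the loss of Nono.

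Cadherins are calcium-dependent adhesion proteins that bind the same cadherin on the neighbouring cell. Classical cadherins hold catenins on their cytoplasmic side and so connect the junction to actin, whereas protocadherins lack the catenin-binding tail. The clustered protocadherin genes lie in tandem arrays named Pcdha, Pcdhb and Pcdhg, each variable exon has its own promoter, and in neurons the choice among those promoters, which depends on CTCF and cohesin, gives cells different surface identities.

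The total count was 17612958 to 19253858 reads per library. The targeted gene Nono was counted 7329, 5884 and 5519 times in WT against 109, 94 and 96 times in Nono-KO, a log2 fold change of -5.89 (SE 0.13). WT replicate 1 stood apart from the other WT libraries on the second principal component (29.1 against -15.3 and -11.1), an axis that held 4.96% of the variance while the first, which separated WT from Nono-KO, held 88.7%. Muscle RNA was present in both groups and higher in Nono-KO. Myod1, a myoblast transcription factor, was at 126 ± 19.1 CPM in WT and 151 ± 9.17 CPM in Nono-KO (SD, n = 3) and did not pass the test described below, where CPM is the read count relative to the TMM-scaled library total. The differentiation markers Myog, Des and Ckm rose from 6.50, 22.1 and 0.39 CPM to 106, 96.7 and 3.67 CPM, and the myoblast and muscle list summed to 144 to 175 CPM over the WT libraries against 333 to 372 CPM over the Nono-KO libraries. Of the 10 cardiomyocyte markers, 4 had under 10 counts in every library and Myh6, a cardiac myosin heavy chain, had at most 18. The cardiac transcription factor Nkx2-5 rose from 20.9 to 40.6 CPM, and Tnnt2, cardiac troponin T, was at 13.4, 78.0 and 83.0 CPM in WT against 111, 135 and 137 CPM in Nono-KO without passing. The cardiomyocyte list summed to 48.4 to 126 CPM and 172 to 199 CPM. Its marker Nppb, with too few counts for the test, had 13, 7 and 4 counts in WT against 1, 0 and 1 in Nono-KO. Of the markers of other cell types, 7 of 9 endothelial and 7 of 8 epithelial genes had under 10 counts in every library. The endothelial list summed to 26.7 to 33.1 CPM over the WT libraries against 45.2 to 60.4 CPM over the Nono-KO libraries, most of it Egfl7. The 2 tested endothelial genes went opposite ways: Egfl7 rose from 26.0 to 51.8 CPM and Vwf fell from 3.58 to 0.845 CPM. The fibroblast list summed to 37300 to 45200 and 28800 to 33900 CPM, most of it collagen genes. Of its 5 tested genes, 3 fell and 1, Thy1, rose. The epithelial list summed to 154 to 172 and 136 to 180 CPM, most of it Krt8, and 5 of 8 neural and Schwann cell markers had under 10 counts in every library, with a sum of 311 to 371 and 308 to 340 CPM, most of it Ncam1. Ncam1 did not pass, whereas Tubb3 of that list rose from 2.55 to 7.07 CPM and Map2 fell from 1.64 to 0.723 CPM. The part of these shifts in the results was not tested. Since these are bulk libraries, fewer cells of a type and less RNA per cell cannot be told apart.

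Of the 54 genes, 30 had enough counts to be tested and 24 did not. With edgeR's quasi-likelihood test and Benjamini-Hochberg adjustment over all 12028 genes tested, 16 of the 30 fell in Nono-KO cells and 2 rose at an adjusted p under 0.05. Over all genes tested 38.1% fell and 34.2% rose, so a large part of the transcriptome passed this test. At an adjusted p under 0.01 and a change of over 1 on the log2 scale, 14 of the 30 were lower and 1 was higher, where 18.7% and 10.8% of all genes tested were. The median log2 fold change of the 30 genes was -0.93, and that of all genes tested -0.05. The CPM values of the groups did not overlap for 20 of the 30, with 17 lower and 3 higher in Nono-KO, against 75.1% of all genes tested. A gene that is high in only 1 group can pass the filter through that group alone, so these counts describe the genes and are no test of them. Without WT replicate 1 the same test gave 17 lower and 2 higher.

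**Figure D1:**
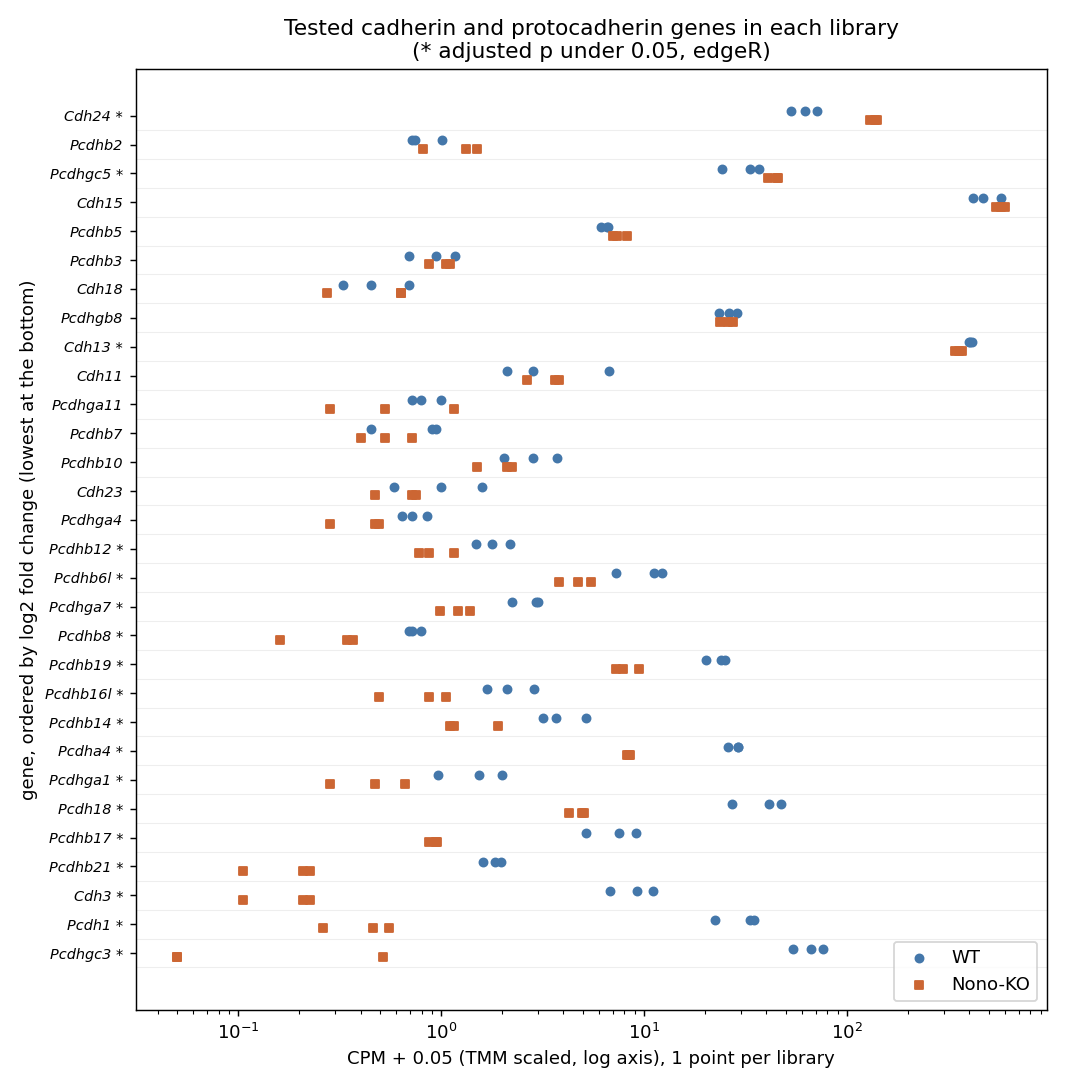
Each row is 1 of the 30 tested genes, ordered by log2 fold change, and each point 1 library (circles WT, squares Nono-KO), on a log axis of CPM + 0.05. Cdh3, Pcdh1 and Pcdhgc3 at the bottom show WT points above 6 CPM and Nono-KO points under 0.6 CPM, whereas Cdh24 at the top shows Nono-KO points of 130 CPM or more above all WT points.

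Numbered cadherins split by gene. Of the 7 tested, Cdh24 rose, Cdh3 and Cdh13 fell, and Cdh11, Cdh15, Cdh18 and Cdh23 did not pass the test. Thus 14.3% rose and 28.6% fell, where 34.2% and 38.1% of all genes tested did. The remaining 9 had too few counts, among them Cdh2, N-cadherin, the main classical cadherin of heart muscle.

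Among the type I cadherins, which form the strong junctions of solid tissues, Cdh3 or P-cadherin had 221, 126 and 164 counts in WT against 3, 1 and 3 in Nono-KO. Its RNA was thus close to absent in every Nono-KO library. The level went from 8.95 ± 2.13 to 0.13 ± 0.06 CPM, with a log2 fold change of -6.04 (SE 0.36, adjusted p = 1.3e-07, edgeR). Cdh15 or M-cadherin, the cadherin of myoblasts and satellite cells, was at 419, 465 and 572 CPM in WT and 574, 601 and 540 CPM in Nono-KO. WT replicate 3 lay within the Nono-KO values, so the groups overlapped, and the log2 fold change of 0.24 (SE 0.11) had an adjusted p of 0.0704 in edgeR, beside the higher sum of muscle markers in Nono-KO given above. That call turned with the processing: the adjusted p was 0.0405 with RLE size factors, 0.0499 with DESeq2, 0.00459 without WT replicate 3 and 0.0402 without Nono-KO replicate 3. Leaving out WT replicate 1 instead gave a smaller log2 fold change of 0.14 with an adjusted p of 0.223 in edgeR. Cdh2 had 8, 6 and 3 counts in WT against 6, 9 and 4 in Nono-KO, and Cdh4 or R-cadherin at most 3 counts in any library. At this depth a difference in Cdh2 was not detectable, since the ratio of its summed counts, 1.18, had an exact 95% interval from 0.579 to 2.41. Such intervals cover counting error only.

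The type II cadherins mark mesenchymal, neural and vascular cells. Cdh24, which is known to bind catenins as the classical cadherins do, had 1068, 1161 and 1282 counts in WT against 2341, 2527 and 2454 in Nono-KO. All Nono-KO libraries lay above all WT libraries. Its level rose from 62.2 ± 9.10 to 136 ± 5.43 CPM, a log2 fold change of 1.13 (SE 0.11, adjusted p = 3.05e-06, edgeR), and it was the one gene of the 30 to be higher by over 1 on the log2 scale. Cdh11, the cadherin of mesenchymal cells and osteoblasts, had 134, 52 and 37 counts in WT against 61, 47 and 71 in Nono-KO. The highest and the lowest library were both WT. The log2 fold change of Cdh11 was -0.22 (SE 0.38, adjusted p = 0.614) with all libraries and 0.45 (adjusted p = 0.119) without WT replicate 1, so WT replicate 1 sets its sign. Cdh18, a cadherin of the nervous system, was at 0.44 ± 0.19 and 0.46 ± 0.21 CPM, with groups that overlapped. The 5 type II cadherins that were not tested had 0 to 3 counts per library, with Cdh22 at 0, 1 and 0 counts in WT against 3 in each Nono-KO library.

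Outside the classical types, Cdh13 or T-cadherin, which has no cytoplasmic tail and is held by a lipid anchor, had 8277, 7521 and 7168 counts in WT against 6096, 6605 and 6454 in Nono-KO. The groups did not overlap, yet the step was small. The level fell from 404 ± 6.73 to 355 ± 13.0 CPM, a log2 fold change of -0.19 (SE 0.07, adjusted p = 0.0408, edgeR). The call was lost with RLE size factors, with DESeq2, in 5 of 6 fits that left out a library and at an adjusted p under 0.01, so T-cadherin stood at the edge of the test. Cdh23, a cadherin of the tip links of hair cells, was at 1.01 ± 0.51 CPM in WT and 0.60 ± 0.15 CPM in Nono-KO (adjusted p = 0.12). Its log2 fold change was -0.77 with all libraries, -1.07 without WT replicate 2 (adjusted p = 0.0263) and -0.31 without WT replicate 1 (adjusted p = 0.511). Cdh17, a cadherin of gut epithelium, had too few counts for the test at 16, 8 and 10 in WT against 1, 1 and 0 in Nono-KO. Its ratio of summed counts, Nono-KO over WT, was 0.0619 with an exact 95% interval from 0.00721 to 0.241.

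Both tested single-gene protocadherins fell by over 3 on the log2 scale. Pcdh1, a delta-1 protocadherin known from airway epithelium, had 699, 417 and 596 counts in WT against 7, 9 and 4 in Nono-KO. No library of one group came near the other. The level fell from 30.1 ± 6.78 to 0.37 ± 0.15 CPM, a log2 fold change of -6.32 (SE 0.28, adjusted p = 2.14e-08, edgeR). Pcdh18, a delta-2 protocadherin, had 542, 881 and 742 counts in WT against 84, 76 and 94 in Nono-KO. Here WT replicate 1 was the lowest WT library and still far above the Nono-KO libraries. The level went from 38.4 ± 10.4 to 4.70 ± 0.41 CPM, a log2 fold change of -3.03 (SE 0.20, adjusted p = 2.52e-07). Pcdh12, an endothelial protocadherin, and Pcdh15, a tip-link protocadherin, had at most 3 counts in any library.

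The clustered protocadherins lie next to one another on chromosome 18, and their promoters share a conserved element with the letters CGCT at its core, the CGCT box, which is known to be missing from some C-type promoters such as that of Pcdhgc5. RefSeq promoters of the build GRCr8, 250 bases before to 50 after the start of a gene, were at hand for 43 of the 54 genes. CGCT alone, searched on both strands, was common at 60.9% of all 33469 promoters. The longer Pcdhb form TGGCGCTG, read off these same promoters, was in 14 of 16 Pcdhb promoters and in 1.56% of all, and the Pcdhg form CGCTGT in 11 of 14 Pcdhg promoters and in 9.4% of all. Both forms contain CGCT and so overlap with it. The 48 bases around the box are shown for Pcdhb genes that did not pass the test (Pcdhb3, Pcdhb5) and that fell (Pcdhb12, Pcdhb14, Pcdhb19, Pcdhb21), so that the box can be set beside the RNA changes, with the box in capitals.
Pcdhb3 (chr18:29285595-29285642, + strand): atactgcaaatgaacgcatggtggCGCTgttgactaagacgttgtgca
Pcdhb5 (chr18:29302395-29302442, + strand): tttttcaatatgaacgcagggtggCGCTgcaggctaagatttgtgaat
Pcdhb12 (chr18:29413639-29413686, + strand): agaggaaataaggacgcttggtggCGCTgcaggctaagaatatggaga
Pcdhb14 (chr18:29431800-29431847, + strand): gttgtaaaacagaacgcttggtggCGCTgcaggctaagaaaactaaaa
Pcdhb19 (chr18:29478755-29478802, + strand): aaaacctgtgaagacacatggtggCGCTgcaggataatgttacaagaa
Pcdhb21 (chr18:29492140-29492187, + strand): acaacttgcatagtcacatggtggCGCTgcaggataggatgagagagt
The Pcdhb form was present in all 5 Pcdhb genes that were tested, did not pass and had a promoter in the table, and in 5 of 7 that fell. The box thus occurred in promoters of both kinds of gene, 47 to 93 bases before the start in those shown. In Pcdhg, the matching stretches are given for Pcdhga7 and Pcdhgc3, which fell, and for Pcdhgb8, which did not pass.
Pcdhga7 (chr18:29794196-29794243, + strand): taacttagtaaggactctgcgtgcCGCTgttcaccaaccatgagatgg
Pcdhgb8 (chr18:29839487-29839534, + strand): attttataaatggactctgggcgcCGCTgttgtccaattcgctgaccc
Pcdhgc3 (chr18:29884057-29884104, + strand): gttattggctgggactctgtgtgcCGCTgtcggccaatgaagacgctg
The Pcdhg form was in 2 of 3 genes that fell and in 2 of 3 that did not pass, and it was absent from the window of Pcdhgc5, the one that rose. CGCT itself was absent on both strands from the promoters of Pcdhgc5, of Pcdhb6l, Pcdhb16l and Pcdhga1, which fell, and of Pcdhga4, which did not pass. A match says only that the letters are there.

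Of the 34 clustered protocadherins, 21 were tested: 12 fell (57.1%), 1 rose (4.76%) and 8 did not pass, with a median log2 fold change of -1.14, where 38.1% of all genes tested fell and 34.2% rose. The isoforms of Pcdha share their constant exons, as do those of Pcdhg, the Pcdhb genes are near-identical in parts, and none of the sources used here states how reads on shared sequence were assigned. The split of reads among symbols of a cluster is therefore uncertain, and no symbol was ranked against another by its level.

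Pcdha was represented by Pcdha4, a symbol under which RefSeq also lists the other Pcdha isoforms. It had 520, 545 and 518 counts in WT against 143, 152 and 154 in Nono-KO. Each group was tight and the groups lay far apart. The level fell from 27.9 ± 1.80 to 8.32 ± 0.16 CPM, a log2 fold change of -1.75 (SE 0.12, adjusted p = 2.52e-07, edgeR).

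In Pcdhb, single-exon genes with a promoter each, 8 of 13 tested symbols fell and none rose, by the same background of 38.1% and 34.2%. Pcdhb17 had 103, 140 and 163 counts in WT against 14, 16 and 17 in Nono-KO, with a log2 fold change of -3.04 (SE 0.27, adjusted p = 1.76e-06, edgeR). Pcdhb21 had 36, 36 and 28 counts in WT against 3, 1 and 3 in Nono-KO, with a log2 fold change of -3.69 (SE 0.40, adjusted p = 8.03e-06). These were the Pcdhb symbols with the lowest log2 fold changes, and their groups were far apart. Pcdhb19 had 407, 465 and 428 counts in WT against 160, 129 and 148 in Nono-KO, a log2 fold change of -1.50 (SE 0.14, adjusted p = 2.95e-06). Pcdhb6l had 145, 228 and 200 counts in WT against 64, 97 and 88 in Nono-KO, a log2 fold change of -1.14. In both, the highest Nono-KO library stayed below the lowest WT library.

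The other 4 Pcdhb symbols that fell had 2 to 96 counts per library. Pcdhb14 had 63, 96 and 65 counts in WT against 19, 19 and 35 in Nono-KO (-1.55, SE 0.29, on the log2 scale). Pcdhb16l had 33, 53 and 37 in WT against 14, 8 and 19 in Nono-KO (-1.51, SE 0.34). For these the groups did not overlap. Pcdhb12 had 29, 40 and 31 in WT against 14, 13 and 21 in Nono-KO (-0.99, SE 0.29). Pcdhb8 had 13, 14 and 12 in WT against 5, 2 and 6 in Nono-KO (-1.49, SE 0.43). The call of Pcdhb12 was lost with DESeq2 (adjusted p = 0.0501), and that of Pcdhb8 with DESeq2 (adjusted p = 0.0791) and without Nono-KO replicate 2 (adjusted p = 0.0529).

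Pcdhb2, Pcdhb3, Pcdhb5, Pcdhb7 and Pcdhb10 did not pass. Pcdhb5, the one of these with over 100 counts in every library, had 132, 122 and 109 counts in WT against 125, 125 and 154 in Nono-KO. On the CPM scale its Nono-KO libraries (6.95 to 8.15) lay above its WT libraries (6.06 to 6.56), but the log2 fold change of 0.23 (SE 0.15) had an adjusted p of 0.204. The log2 fold changes of Pcdhb2, Pcdhb3, Pcdhb7 and Pcdhb10 were 0.58, 0.12, -0.50 and -0.57, on 6 to 69 counts per library. Pcdhb10 passed without WT replicate 1, at -0.78 with an adjusted p of 0.0132. The 5 untested Pcdhb symbols had 0 to 20 counts, and Pcdhb20 among them went from 9, 20 and 11 counts to 1, 1 and 4, a ratio of summed counts of 0.158 with an exact 95% interval from 0.0547 to 0.375.

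The changes were ordered along the Pcdhb array. Taken in the order of the genes on the chromosome in RefSeq, none of the 4 tested symbols from Pcdhb2 to Pcdhb7 passed (median log2 fold change 0.18), whereas 8 of the 9 from Pcdhb8 to Pcdhb21 fell (median -1.50), the exception being Pcdhb10. Among all genes tested 38.1% fell and 34.2% rose. The place in the order and the log2 fold change had a Spearman's rho of -0.92 and a Pearson's r of -0.89 over the 13 symbols. This is a description across genes that share libraries and in part sequence, and the dividing point after Pcdhb7 was set after the values were seen. Pcdha4, ahead of the array, did not share the pattern, since it fell.

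**Figure D2:**
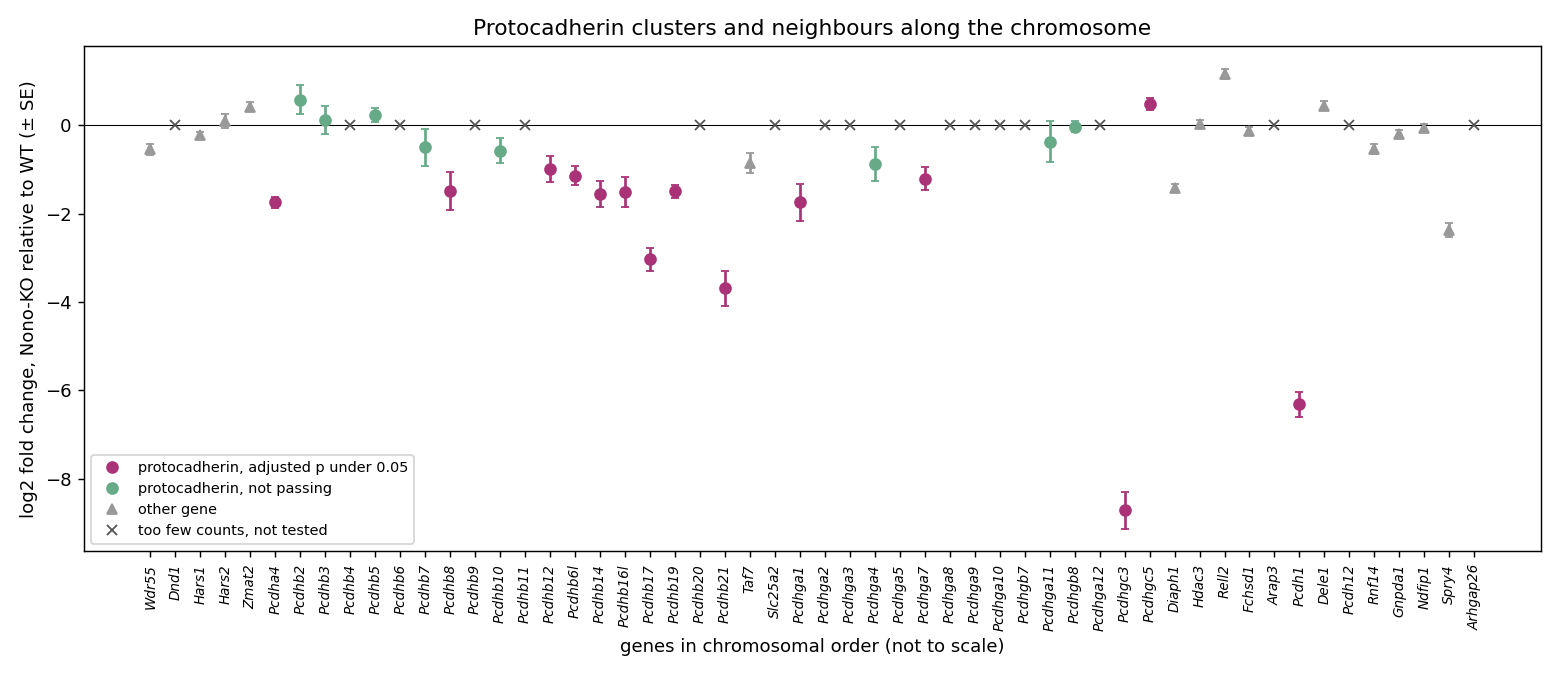
The log2 fold change, Nono-KO relative to WT, with its SE is plotted for protocadherins (circles) and other genes (triangles) in their order on the chromosome, with crosses at 0 for genes not tested. Pcdhb values pass from near 0 at Pcdhb2 to Pcdhb5 to below -3 at Pcdhb17 and Pcdhb21, and Pcdhgc3 at -8.72 and Pcdh1 at -6.32 stand below the other genes.

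Pcdhg held the widest contrast. Pcdhgc3, a C-type isoform expressed in many tissues, had 1522, 1017 and 1188 counts in WT against 8, 0 and 0 in Nono-KO. Its RNA was abundant in every WT library and at or near 0 in every Nono-KO library. The ratio of the summed counts, Nono-KO over WT, was 0.00226 with an exact 95% interval from 0.000975 to 0.00446, and the fitted log2 fold change was -8.72 (adjusted p = 7.06e-08, edgeR), a value that depends on the prior count since 2 libraries were at 0 and was -13.26 without Nono-KO replicate 1, where every remaining Nono-KO library was at 0. Pcdhgc5, the next Pcdhg symbol of the count table and also of the C type, had 740, 451 and 594 counts in WT against 782, 810 and 765 in Nono-KO. All its Nono-KO libraries lay above its WT libraries on the CPM scale. The level rose from 31.3 ± 6.52 to 43.8 ± 2.85 CPM, a log2 fold change of 0.48 (SE 0.14, adjusted p = 0.00855).

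Pcdhgc3 and Pcdhgc5 follow each other among the symbols of the count table and had opposite directions (Pcdhgc4, the C-type isoform known between them, was not analysed here). The 250 bases before the start of each are given below, with every CGCT on either strand (read as AGCG on the other) in capitals.
Pcdhgc3 (chr18:29883995-29884244, + strand): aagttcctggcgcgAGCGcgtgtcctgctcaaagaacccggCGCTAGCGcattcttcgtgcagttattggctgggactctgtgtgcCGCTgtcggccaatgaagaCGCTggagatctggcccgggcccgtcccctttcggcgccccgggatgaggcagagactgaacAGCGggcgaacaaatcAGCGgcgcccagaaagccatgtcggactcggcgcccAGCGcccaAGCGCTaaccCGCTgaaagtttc
Pcdhgc5 (chr18:29898180-29898429, + strand): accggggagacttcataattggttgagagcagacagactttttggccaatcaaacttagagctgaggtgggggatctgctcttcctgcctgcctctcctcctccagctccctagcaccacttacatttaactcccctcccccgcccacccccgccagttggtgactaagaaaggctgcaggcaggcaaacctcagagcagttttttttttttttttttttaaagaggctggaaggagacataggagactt
The stretch before Pcdhgc3 held 11 such matches, of which 1 pair overlaps in the run AGCGCT, and 63.6% G or C, and that before Pcdhgc5 held 0 matches and 50.4% G or C. Matches were not counted for other genes that hold the letters. Pcdhb6l, Pcdhb16l and Pcdhga1, which fell, and Pcdhga4, which did not pass, held no CGCT on either strand, like Pcdhgc5. Whether the letters bear on the RNA of either gene was not tested.

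Among the variable Pcdhg isoforms, Pcdhga1 and Pcdhga7 fell, and Pcdhga4, Pcdhga11 and Pcdhgb8 did not pass. Pcdhga7 had 44, 54 and 53 counts in WT against 16, 24 and 22 in Nono-KO (log2 fold change -1.21, SE 0.26). Pcdhga1 had 30, 17 and 35 counts in WT against 4, 11 and 8 in Nono-KO (-1.75, SE 0.41). Both had groups that did not overlap, on few counts. Pcdhgb8 had 578, 438 and 471 counts in WT against 443, 493 and 444 in Nono-KO, and its log2 fold change of -0.03 (SE 0.12) had an adjusted p of 0.831. Pcdhga4, at -0.88 (SE 0.38), had an adjusted p of 0.0579, which became 0.0468 with total counts as scaling, and Pcdhga11 was at -0.37 (SE 0.47, adjusted p = 0.494), with -1.11 without Nono-KO replicate 2 (adjusted p = 0.0592) and 0.01 without Nono-KO replicate 1. The 8 untested Pcdhg symbols had 0 to 11 counts, with Pcdhga3 at 1, 7 and 6 in WT against 0 in each Nono-KO library, and Pcdhga2 at 3, 11 and 4 in WT against 0, 3 and 1 in Nono-KO.

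Summed over its symbols, Pcdhg was at 130 ± 19.7 CPM in WT and 72.6 ± 5.05 CPM in Nono-KO, or 56% of WT. Without Pcdhgc3 the sums were 64.3 ± 9.09 and 72.4 ± 4.98 CPM, or 113% of WT. With reads as assigned, the lower sum of the cluster thus rested on that 1 symbol. Pcdhb as a whole went from 64.1 ± 10.4 to 29.7 ± 2.47 CPM, or 46.3% of WT, and Pcdha from 27.9 to 8.32 CPM, or 29.8%. The shares that follow are of counts as assigned and carry the uncertainty of that split. Within Pcdhg, Pcdhgc3 took 49.8% to 51.3% of the counts of a WT library and 0% to 0.63% of a Nono-KO library, where the exact 95% upper bounds (Clopper-Pearson) were 0.267% and 0.291% in the libraries at 0. The share of Pcdhgc5 was 22.2% to 24.9% in WT against 58.8% to 61.6% in Nono-KO, and that of Pcdhgb8 19.5% to 21.6% and 34.9% to 35.8%. Within Pcdhb, the share of Pcdhb5 was 8.94% to 12.5% in WT against 25.1% to 25.2% in Nono-KO. A share can grow while the level stays when another symbol of the cluster loses counts, as for Pcdhgb8 beside the loss of Pcdhgc3.

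**Figure D3:**
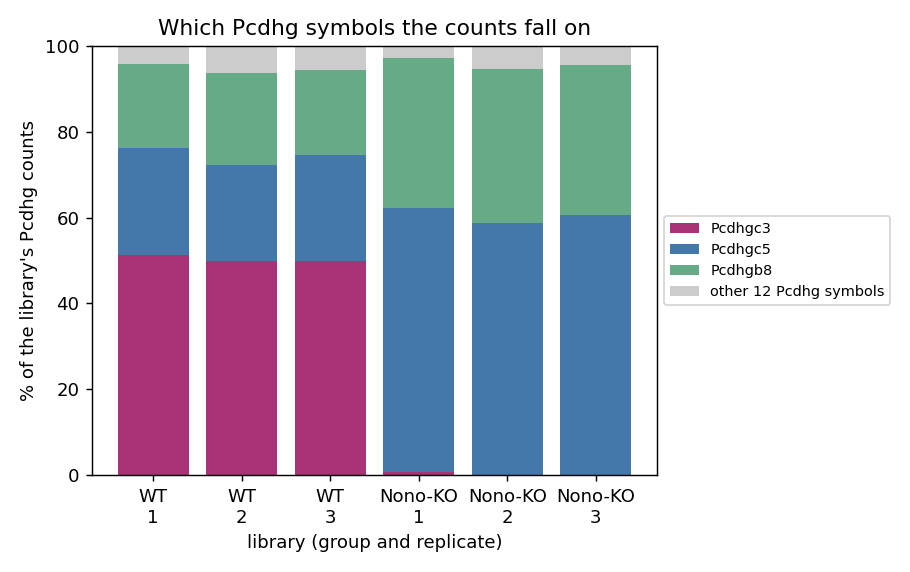
Each bar is 1 library and is split by the percent of its Pcdhg counts on each symbol, as assigned by the counting, whose treatment of shared exons is not stated. Pcdhgc3 fills 49.8% to 51.3% of the WT bars and at most 0.63% of the Nono-KO bars, where Pcdhgc5 holds 58.8% to 61.6%.

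Genes beside the arrays moved both ways. Between Pcdha4 and Pcdh12, 8 genes of the table are no protocadherins, and of the 6 tested Rell2 and Dele1 were higher and Taf7 and Diaph1 lower, in a range from -1.42 to 1.16 on the log2 scale. Of the 5 genes on each side, 8 were tested, with 1 higher and 4 lower, down to -2.37. Among all genes tested 34.2% were higher and 38.1% lower. Hdac3, which lies between Pcdhgc5 and Pcdh1 in that order, did not pass.

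The genes that work with cadherins were read from 6 lists, chosen with earlier results of these data known, so the counts below describe them only. Of 13 chromatin regulators of the clustered protocadherins, all 13 fell, with a median of -1.25, where 38.1% of all genes tested fell and their median was -0.05. The cohesin genes Stag1, at 8.96 ± 1.74 CPM in WT and 2.44 ± 0.05 in Nono-KO, Smc3 and Rad21 changed by -1.87, -1.42 and -1.11 on the log2 scale. Nipbl, the cohesin loader, and Wapl, its release factor, changed by -1.75 and -1.34, and Dnmt1, the maintenance DNA methyltransferase, by -0.63. Ctcf, which binds the promoters of the arrays and was added to the named genes after its values were seen, had 839, 835 and 742 counts in WT against 295, 289 and 370 in Nono-KO, a log2 fold change of -1.27 (SE 0.11, adjusted p = 1.29e-06, edgeR). For Ctcf and Stag1 every Nono-KO library lay below every WT library. Whether these changes bear on the protocadherins was not tested.

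Catenins and their armadillo relatives, which bind the tails of classical cadherins and desmosomal cadherins, were split, with 5 of 10 lower and 2 higher (median -0.32), beside 38.1% lower and 34.2% higher over all genes tested. Ctnnb1 or beta-catenin went from 368 ± 27.6 to 273 ± 24.4 CPM (-0.43, SE 0.09), and Pkp1, a desmosomal plakophilin, from 1120 ± 112 to 566 ± 14.9 CPM (-0.99, SE 0.09). Arvcf, a p120-catenin relative, rose from 40.1 ± 7.18 to 125 ± 11.5 CPM (1.64, SE 0.13), with no overlap of the groups. Pkp2 rose by 0.50 (SE 0.19, adjusted p = 0.0362, edgeR), a call lost with total counts as scaling (adjusted p = 0.084) and without WT replicate 2, WT replicate 3, Nono-KO replicate 2 or Nono-KO replicate 3 (adjusted p from 0.0517 to 0.139), and its groups overlapped. Jup or plakoglobin, the catenin that junctions and desmosomes share, did not pass, at 449 ± 51.9 and 472 ± 30.2 CPM.

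Of 14 junction adaptors and nectins, 9 fell and 2 rose (median -1.08), beside 38.1% and 34.2% of all genes tested. Nectin3, an immunoglobulin-type adhesion protein of the same junctions, changed by -2.07, Vcl or vinculin, the actin link of strained junctions, by -1.72, Afdn or afadin, the nectin adaptor, by -1.69 and Cask, a scaffold, by -1.59. Tln1 and Ajuba, with the most counts, did not pass. Of 12 sheddases and turnover factors, 8 fell and 2 rose (median -0.59), beside the same 38.1% and 34.2%. Among those that fell were Adam10, the main sheddase of classical and Pcdhg cadherins, at -1.30, Ptprm, a phosphatase of junctions, at -1.30, Cbll1, a ubiquitin ligase for E-cadherin, at -1.16, and Adam9 at -0.92. Mmp14 and Ncstn, with the most counts, did not pass, though Mmp14 did without WT replicate 2 (adjusted p = 0.0216).

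Of 9 transcriptional repressors of cadherin genes, 6 fell and 1 rose (median -0.57), where 38.1% and 34.2% of all genes tested did. Zeb1 went from 16.3 ± 3.40 to 3.42 ± 1.01 CPM (-2.25, SE 0.22) and Zeb2 from 9.78 ± 2.65 to 2.47 ± 0.14 CPM (-1.98, SE 0.23), each without overlap. Twist1 and Snai1 fell by less, at -0.83 and -0.57, and Tcf3 rose by 0.77. Of the 8 tested genes of the wider cadherin superfamily, 2 fell and 1 rose (median -0.08), against 38.1% and 34.2% of all genes. Fat1, a giant atypical cadherin, went from 554 ± 56.8 to 279 ± 18.9 CPM (-0.99), and Fat4, which binds Dchs1 in planar polarity, from 8.84 ± 1.17 to 1.58 ± 0.26 CPM (-2.48). Clstn3, a calsyntenin, had 45, 16 and 12 counts in WT against 242, 292 and 239 in Nono-KO (3.49, SE 0.32), with no overlap of the groups, and Clstn1 did not pass.

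**Figure D4:**
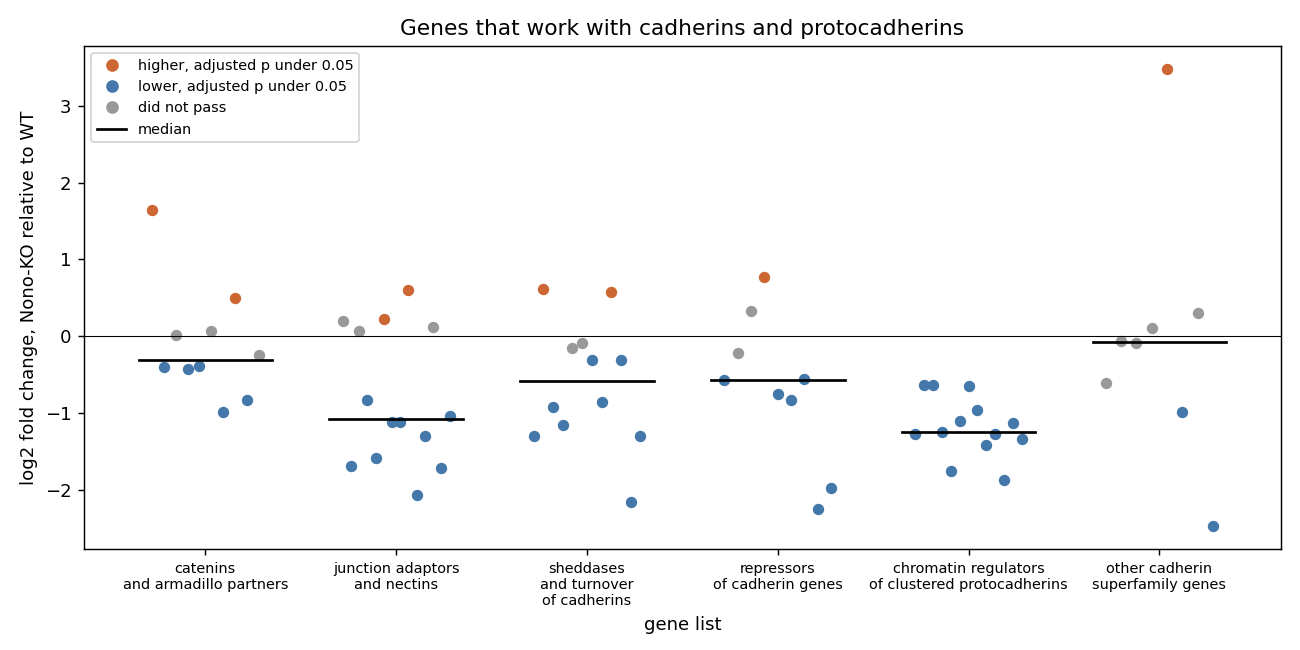
Each point is the log2 fold change, Nono-KO relative to WT, of 1 tested gene of a list, coloured by its call at an adjusted p under 0.05, and each line is the median of its list. All 13 chromatin regulators lie below 0 with a median of -1.25, whereas the other lists hold genes on both sides of 0.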

How the data were processed

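Poly(A) RNA from 3 WT and 3 Nono-KO libraries was sequenced from stranded mRNA libraries. The values deposited by the authors are raw counts, with 1 row per gene symbol and 1 column for each library, neither scaled nor pooled. Trimmomatic, HISAT2, HTSeq and mRatBN7.2 stand in the submitters' processing notes without versions, and Bowtie2 and Rn6 in the methods of the paper. The annotation, strand setting and treatment of reads on shared exons are not stated by any source used here. Those shared by paralogs or overlapping genes may have been dropped or split.

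Counts were fitted in edgeR 4.0.16 (R 4.3.3, limma 3.58.1) with TMM scaling, filterByExpr and the robust quasi-likelihood F test, on 12028 of 16319 genes, with Benjamini-Hochberg adjustment over all of them. An adjusted p under 0.05 is written as "rose" or "fell". SE was taken as the size of the log2 fold change over the root of F. Exact intervals use a 95% level. The script was tested on simulated data. Members and gene lists were chosen with earlier results of these data known. Named were all tested members, with every library for called ones at 1 CPM or more, and per list up to 4 called genes of largest change at 5 CPM or more and the 2 with most counts. An exact permutation test of 3 against 3 cannot go below p = 0.1 and was not used. Alternatives were RLE size factors, total counts, other filters, DESeq2 1.42.0, a replicate block, a stricter threshold and leaving out each library. Promoters came from RefSeq (GRCr8), and no protein sequences were used here.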

Additional observations from a re-analysis of the deposited data

How the results depend on the processing

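The number of members that fell stayed between 15 and 20 and of those that rose between 2 and 3 over all alternatives, and no called value changed sign. With no filter Cdh17, Cdh22, Pcdhb20, Pcdhga2 and Pcdhga3 were tested and passed too, and with DESeq2 Cdh17, Pcdhb20 and Pcdhga3. Numbered cadherins that rose were 2 with RLE size factors, with no filter on low counts and with DESeq2, and 1 to 2 when a library was left out; those that fell were 1 with RLE size factors, with the replicate block and at an adjusted p under 0.01, and 1 to 3 when a library was left out. Higher catenins were 1 with total counts and at an adjusted p under 0.01, and 1 to 2 without single libraries. Higher junction adaptors and nectins were 1 with total counts, with the replicate block and at an adjusted p under 0.01, and 1 to 3 without single libraries, and higher genes of the wider superfamily 1 to 2. The replicate block left 15 members lower and 2 higher, with Cdh13 lost. The labels state no pairing of the libraries. Same-numbered libraries had correlations of 0.0454, -0.165 and -0.192. These were taken on deviations from group means of 3 libraries and cannot decide whether the numbers pair them. The 24 untested members had too few counts for the filter, and 12 of them had at most 3 counts in every library. Whether depth, lack of expression or the assignment of reads kept their counts low was not tested.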
